A study of Drosophila melanogaster with 4 samples.

Results

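Broad ORC2 regions are those combined regions of the 6 main chromosome arms (2L, 2R, 3L, 3R, 4 and X) that span 1000 bp or more. They numbered 700 of the 6503 regions on these arms (10.8%, 95% exact binomial interval 10.02 to 11.5) and of 6587 regions in the whole combined list. They were chosen by their measured width in the combined list alone, so their widths, and what follows from width, are given as a description without a test. The 5803 narrower regions of the same arms are set beside them throughout.

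The lists describe chromatin immunoprecipitation followed by sequencing (ChIP-seq) of ORC2 in salivary glands of wandering L3 larvae of Drosophila melanogaster, with a rabbit polyclonal antibody. Both libraries with lists are labelled SuUR mutant, one from each of 2 chromatin extractions (replicates 1 and 2), in a strain kept by the Orr-Weaver lab whose record names an outcross of 3, a transposon and a GFP tag. The allele is not named. The remaining entries, labelled wild type Oregon-R (one ORC2 ChIP, one input), were not analysed here, so broad regions could not be compared between genotypes. No label says whether the 2 extractions came from separate animals.

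ORC2 is a subunit of the origin recognition complex, which binds DNA and loads the replicative helicase, and so marks places where replication may start. In Drosophila the complex has no strict sequence motif and is known to sit in open chromatin, often near active promoters. Salivary gland cells repeat DNA synthesis without dividing and build polytene chromosomes, and the SuUR protein is known to hold back the copying of some late-replicating stretches there. Libraries were made from fragments of 150 to 200 bp, so a region of 1 kb or more is several fragments long. Each library pools the chromatin of many cells, so a wide stretch bound in every cell and nearby narrow sites bound in different cells cannot be told apart.

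Broad regions made up a small part of the list and a larger part of the bound sequence. Together they covered 989056 bp, which was 28.0% of the bound length of the main arms, from 10.8% of the regions. Their median width was 1273.5 bp (quartiles 1103 and 1522), against 398 bp (261 and 588) for the narrower regions. Widths fell off without a break at the limit: 90 regions measured from 1000 up to 1050 bp, and 99 from 950 up to 1000 bp. Regions of 1500 bp or more numbered 189 and held 10.7% of the bound length, those of 2000 bp or more numbered 61 and held 4.59%, and 3 regions exceeded 4000 bp. The widest 1651 regions (25.4%) were needed to reach 50.01% of the bound length, and the narrowest of these measured 684 bp.

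**Figure D1:**
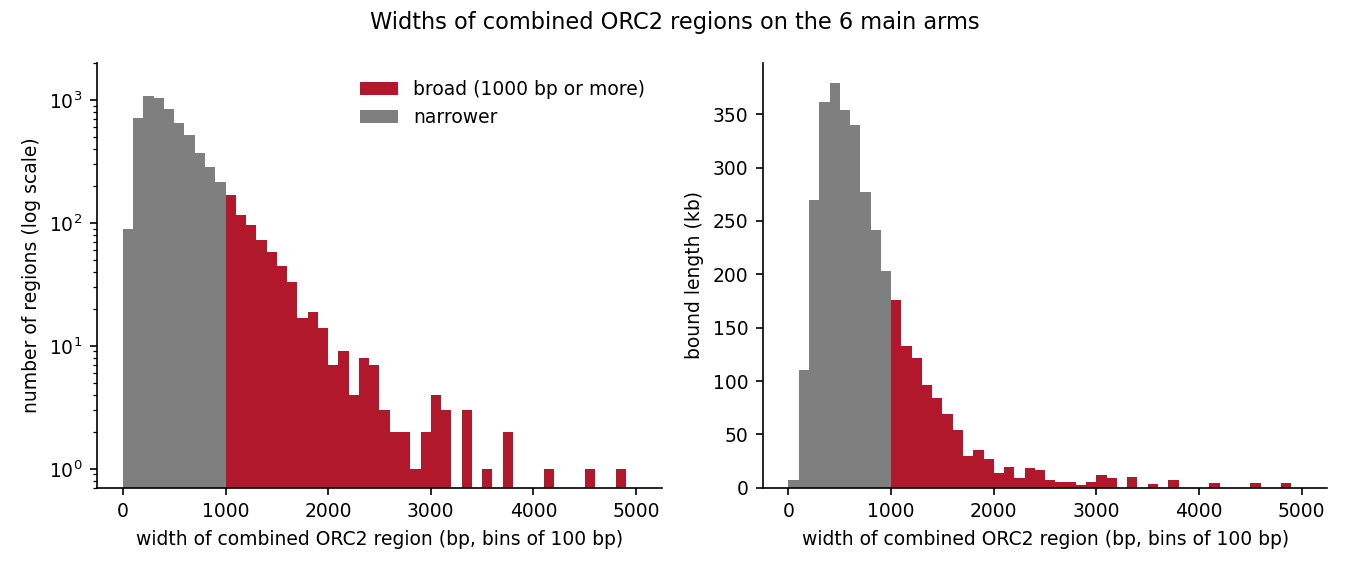
Number of combined ORC2 regions (left, log scale) and bound length in kb (right) in bins of 100 bp of region width, for broad regions in red and narrower ones in grey. The counts decline smoothly through 1000 bp, and the 700 broad regions hold 28.0% of the bound length.

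The regions nearest the limit scored 1.36 to 2.31 in replicate 1 and mostly near 2 in replicate 2. Just inside it were ORC1152 on 2L (1000 bp, scores of 1.36 in replicate 1 and 1.995 in replicate 2), ORC2553 on 3L (1001 bp, 1.68 and 1.97) and ORC4694 on 3R (1002 bp, 1.51 and 2.19). Just outside were ORC3672 on 3L (998 bp, 1.82 and 2.31), ORC1196 on 2L (997 bp, 1.39 and 2.41) and ORC3103 on 3L (997 bp, 2.31 and 4.84). The score is the authors' value per peak and carries no unit. Where a region held several peaks of a library, their mean is given.

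The widest region was ORC4544 at 3R 13419996 to 13424829 (FlyBase release 5.1, as are all positions), with a width of 4834 bp. A single peak of 4834 bp in replicate 1 (score 2.50) and a single peak of 4760 bp in replicate 2 (score 4.66) made it up, so the libraries had 98.5% of its bases in common. The second was ORC2660 at 3L 3247811 to 3252314 (4504 bp). Replicate 2 had 1 unbroken peak there, whereas replicate 1 had 3, the longest of 3279 bp, and a further combined region lay 187 bp away. The third was ORC3683 at 3L 20775216 to 20779407 (4192 bp), with 1 peak of 4143 bp in replicate 1 and 1 of 3646 bp in replicate 2. These 3 regions were wide in both libraries taken alone.

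The other 7 of the 10 widest measured 3185 to 3780 bp and differed in how far a single peak spanned them. ORC981 at 2L 17447725 to 17451504 and ORC358 at 2L 5979880 to 5983588 each had 2 peaks in either library, with 77.2% and 82.1% of their bases in common. ORC4539 at 3R 13226794 to 13230324 and ORC2970 at 3L 9374648 to 9378035 were 1 peak in replicate 2 and 2 and 3 peaks in replicate 1. ORC79 at 2L 1116222 to 1119571 and ORC982 at 2L 17471426 to 17474610 were wide mainly in replicate 1, and the libraries had 36.7% and 37.6% of their bases in common. ORC2849 at 3L 7352177 to 7355482 was 3306 bp wide in replicate 2 and 1807 bp in replicate 1. Its score of 1.36 in replicate 2 was low in that list, whereas 1.76 in replicate 1 was near the middle. Of the 10, 3 were 1 peak in each library and 7 held several peaks of at least 1 library.

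**Figure D2:**
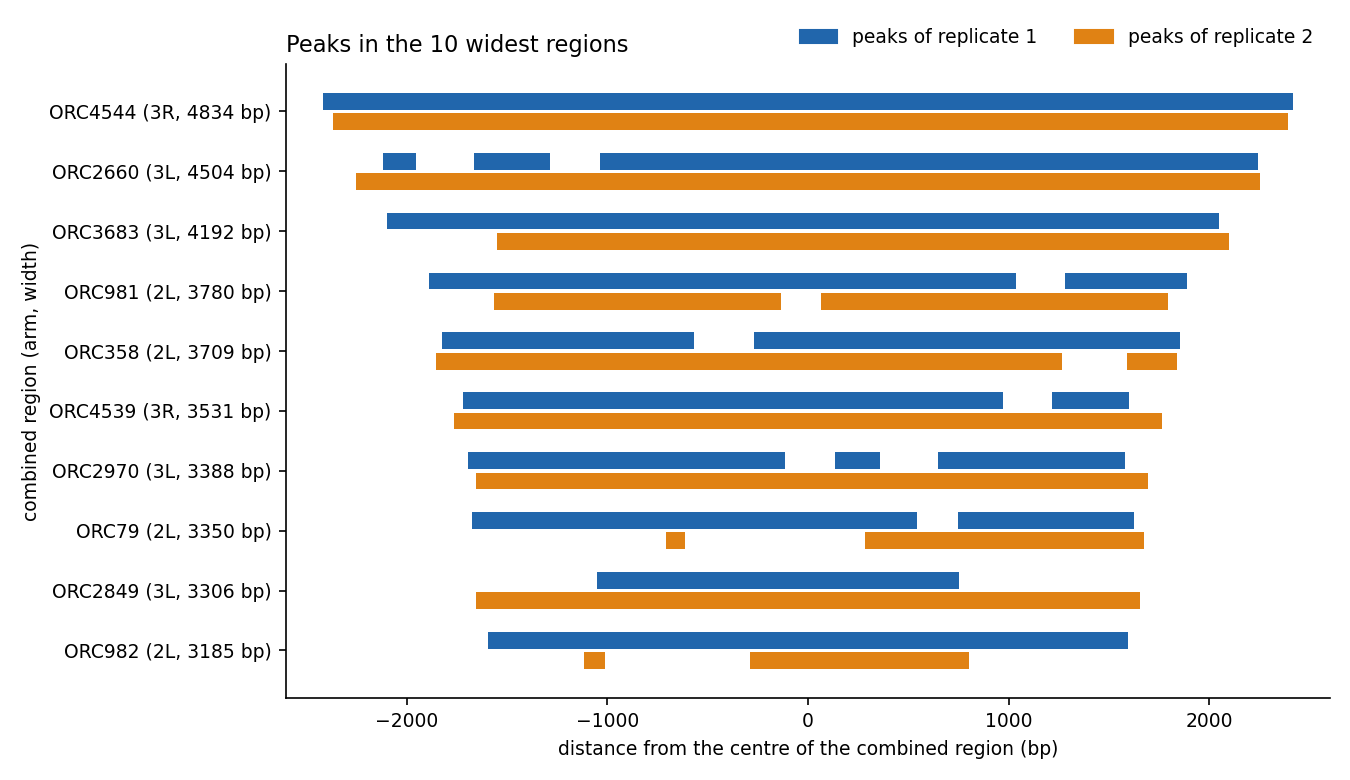
Peaks of replicate 1 (blue) and replicate 2 (orange) in the 10 widest combined regions, drawn to scale against the distance in bp from the centre of each region. ORC4544 is a single peak of nearly the same length in both libraries, whereas ORC79 and ORC982 are wide in replicate 1 and covered less fully by replicate 2.

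Every region of the main arms, broad or narrower, overlapped peaks of both libraries and had their outer limits. Broad regions held more called peaks than narrower ones, as wider regions can. Of the 700, 410 (58.6%, 95% exact binomial interval 54.8 to 62.2) consisted of 1 peak from each library, against 5609 of 5803 narrower regions (96.7%, 96.2 to 97.1). Several peaks of at least 1 library lay in 290 broad regions (41.4%, 37.8 to 45.2) and in 194 narrower ones (3.34%, 2.90 to 3.84). Splitting was mostly on the side of replicate 1: 218 broad regions had several peaks of replicate 1 under 1 peak of replicate 2, 57 had the reverse, and 15 had several of each. The share with several peaks went up with width, with 16.9% of the 675 regions from 750 up to 1000 bp, 36.4% up to 1500 bp, 50.8% up to 2000 bp and 63.9% at 2000 bp or more.

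On average a broad region overlapped 1.38 peaks of replicate 1 and 1.11 of replicate 2, against 1.03 and 1.01 for a narrower region. The gaps between peaks inside broad regions were short. In replicate 1 they had a median of 282 bp (268 gaps, 200 to 1211 bp), and 57.8% were under 300 bp. In replicate 2 the median was 277 bp (74 gaps, 200 to 897 bp), and 62.2% were under 300 bp. Among all neighbouring peaks of the main arms, 6.88% of the gaps in replicate 1 and 9.40% in replicate 2 were under 300 bp. A gap inside a region is bridged by a peak of the other library and is shorter than the region, so it is short by construction, and nothing is read from this difference. No gap in either list was under 200 bp.

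The most divided regions had 4 peaks of replicate 1. They were ORC209 at 2L 3301820 to 3304266, ORC3248 at 3L 14183053 to 14184690, ORC4458 at 3R 11798034 to 11800714 and ORC4793 at 3R 17867248 to 17869043. In ORC3248 the 4 peaks of replicate 1 were 63 to 295 bp wide and covered 573 bp in all, under a single replicate 2 peak of 1638 bp. In ORC209 replicate 2 was divided as well, into 2 peaks. The reverse arrangement, 3 peaks of replicate 2 under 1 of replicate 1, was found in ORC758 at 2L 12107606 to 12109227 and ORC3782 at 3L 22730790 to 22731939. One of the 3 replicate 2 peaks in ORC3782 was 4 bp wide, so such counts include very short calls.

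Most broad regions were broad in 1 library by themselves. A peak of 1000 bp or more in at least 1 library was present in 631 (90.1%, 87.7 to 92.2), and in both libraries in 219 (31.3%, 27.9 to 34.9). Replicate 2 alone had it in 318 regions and replicate 1 alone in 94. In the remaining 69 (9.86%, 7.75 to 12.3) neither library had such a peak, and the width arose when peaks of both were merged. These 69 stayed close to the limit, with a median width of 1046 bp and a maximum of 1757 bp. The 219 with a wide peak in both libraries had a median width of 1499 bp, and the libraries had a median of 86.6% of their bases in common. Under a stricter reading, an unbroken stretch of 1 kb or more covered by both libraries was found in 206 broad regions (29.4%).

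Base by base, the libraries overlapped in broad regions slightly further than in all narrower ones together. Of the bases in broad regions, 67.6% lay in peaks of both libraries, 23.0% in replicate 2 alone and 9.41% in replicate 1 alone. In narrower regions the shares were 62.0%, 27.3% and 10.7%. By width class the median share of a region in both libraries was lowest under 250 bp (55.4%). It was 67.4% from 250 up to 500 bp, 64.3% from 750 up to 1000 bp and 68.1% from 1000 up to 1500 bp. At 2000 bp or more it was 76.8%. Replicate 2 extended beyond replicate 1 by more bases than the reverse in 502 of 700 broad regions and in 4121 of 5803 narrower ones. Where each library gave 1 peak, the ends differed by a median of 102 bp in the 410 broad regions (quartiles 38 and 251) and 47 bp in the 5609 narrower ones (20 and 101). In these 410 the median difference at the ends was small beside the median width of 1219.5 bp. Still, the libraries had a median of 77.1% of their bases in common.

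Width was next read in the library that had not chosen the peak, with the peaks of each replicate list in place of the 700 combined regions. Of the 315 replicate 1 peaks of 1000 bp or more, 314 overlapped a replicate 2 peak (99.7%, 98.2 to 99.99), against 6618 of 7702 narrower ones (85.9%, 85.1 to 86.7). The widest overlapping peak of replicate 2 had a median width of 1221.5 bp (quartiles 925.25 and 1514.5) at broad replicate 1 peaks and 388 bp (244 and 630) at narrower ones. It reached 1000 bp at 220 of the 315 (69.8%, 64.4 to 74.9), against 551 of the 7702 (7.15%, 6.59 to 7.75).

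In the other direction, 538 of 542 broad replicate 2 peaks overlapped a replicate 1 peak (99.3%, 98.1 to 99.8), against 6072 of 9681 narrower ones (62.7%, 61.7 to 63.7). The widest overlapping replicate 1 peak had a median width of 917.5 bp at broad replicate 2 peaks and 289 bp at narrower ones. It reached 1000 bp at 220 of the 542 (40.6%, 36.4 to 44.9), against 148 of the 9681 (1.53%, 1.29 to 1.79). Breadth in either library thus went with a wide peak in the other. A wide peak also has more bases that can be overlapped, and 2 libraries of one group allow no test between samples. The 5 broad peaks without a partner were 1050 to 1349 bp wide and scored 1.16 to 1.59, and 4 of them were in replicate 2.

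Broad regions had ordinary scores and few of the highest ones, and so had narrower regions of 500 bp or more. The 700 broad regions had median scores of 1.74 in replicate 1 and 2.28 in replicate 2. The 5803 narrower regions had 1.77 and 2.34, so broad regions scored slightly lower. Among the peaks of the replicate lists the order of the medians was the opposite. In the replicate 1 list the median score was 1.76 for the 315 broad peaks and 1.73 for the 7702 narrower ones. The 90th percentiles were 2.33 and 2.49, and the maxima 3.38 and 10.2. In replicate 2 the medians were 2.36 for the 542 broad peaks and 2.26 for the 9681 narrower ones. The 90th percentiles were 3.28 and 3.64, and the maxima 5.97 and 17.2. A score of 4 or more was reached by 0 of 315 broad and 96 of 7702 narrower peaks in replicate 1 (0%, 0 to 1.16, and 1.25%, 1.01 to 1.52). In replicate 2 it was reached by 13 of 542 broad and 655 of 9681 narrower peaks (2.40%, 1.28 to 4.07, and 6.77%, 6.27 to 7.28). Both libraries thus had broad peaks in the middle of their score range and not at its top. Among combined regions, a combined score of 4 or more was reached by 94 of 1308 under 250 bp. From 250 up to 500 bp it was 114 of 2453. It was 16 of 1367 from 500 up to 750 bp and 7 of 675 from 750 up to 1000 bp. Of the 700 broad regions 4 reached it, 3 of them among the 511 from 1000 up to 1500 bp. High scores were thus mostly found under 500 bp. The score and the width come from the same calls, so this is a description.

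**Figure D3:**
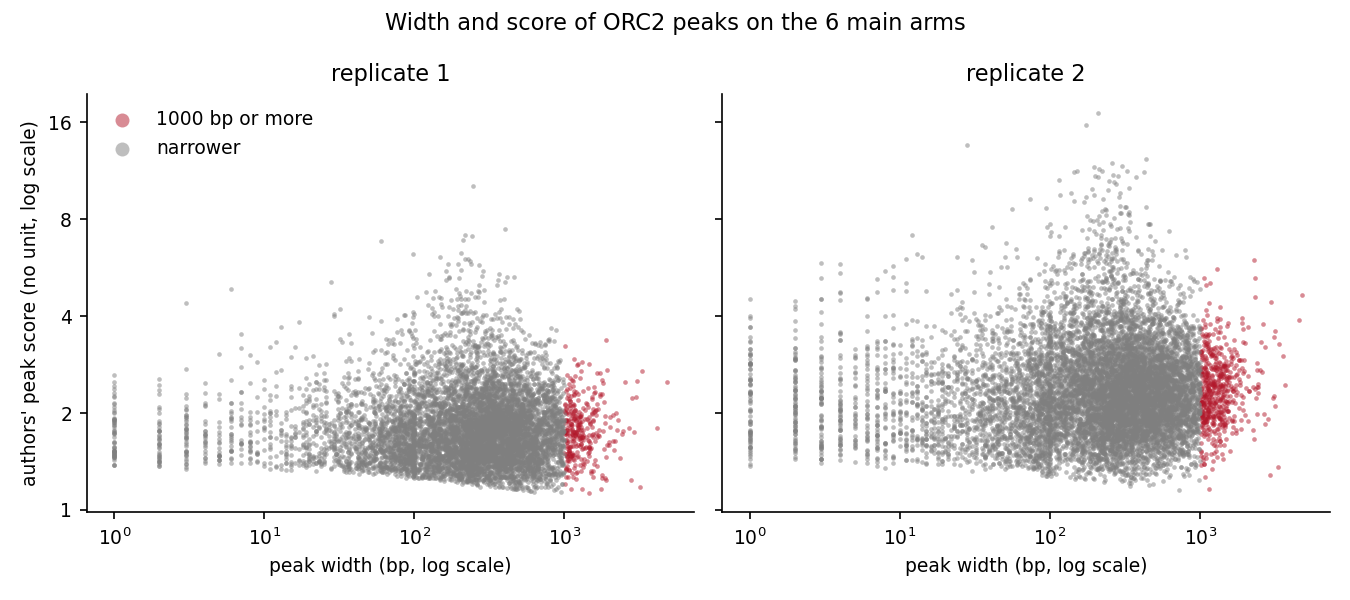
Authors' score against peak width (both log scales) for every peak of the 6 main arms in replicate 1 (left) and replicate 2 (right), with peaks of 1000 bp or more in red and narrower ones in grey. The broad peaks stop at scores of 3.38 and 5.97, whereas narrower peaks reach 10.2 and 17.2.

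The 10 highest-scoring broad regions were spread over 4 arms, with 3 each on 2L, 3R and X and 1 on 3L. ORC6376 at X 17425265 to 17426613 (1349 bp) had the highest combined score, 4.24, with 2.89 in replicate 1 and 5.60 in replicate 2. ORC3549 at 3L 18783731 to 18784847 (1117 bp) scored 3.34 in replicate 1 and 5.01 in replicate 2. ORC5566 at X 3143701 to 3146008 (2308 bp) differed more, with 2.05 in replicate 1 and 5.97 in replicate 2. The others were ORC5229 and ORC4278 on 3R, ORC5, ORC220 and ORC749 on 2L, ORC5706 on X, and ORC4544, which was also the widest region. Replicate 2 scored higher than replicate 1 in each of these 10 and in 663 of all 700 broad regions (94.7%, 92.8 to 96.3), against 5248 of 5803 narrower ones (90.4%, 89.7 to 91.2). Across broad regions the replicate scores had a Spearman correlation of 0.71 (700 regions), and width hardly went with score (0.05 in replicate 1 and 0.06 in replicate 2). These regions come from the same lists and are not independent.

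All arms held broad regions, and 3R held the most. The 193 on 3R were 13.1% of its regions (11.4 to 14.9) and took up 32.9% of its bound length. The shares were 10.9% on X (130 regions, 9.17 to 12.8), 10.8% on 2L (130, 9.12 to 12.7), 9.76% on 3L (132, 8.23 to 11.5) and 9.03% on 2R (111, 7.49 to 10.8). Chromosome 4 had 4 broad regions of 49 (8.16%, 2.27 to 19.6), too few to place it. Per Mb there were 6.92 broad regions on 3R (95% exact Poisson interval 5.98 to 7.97), against 5.25 (4.32 to 6.32) on 2R.

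The excess on 3R was larger in the combined list and in replicate 2 than in replicate 1. In the combined list 3R had 13.1% broad regions, against 10.1% (9.28 to 11.0) on 2L, 2R, 3L and X together. In replicate 2 the shares of broad peaks were 6.49% on 3R (5.52 to 7.57) and 4.96% on the other large arms (4.49 to 5.47). In replicate 1 they were 4.48% (3.57 to 5.54) and 3.78% (3.32 to 4.29), with overlapping intervals, and 2L stood higher than 3R there (5.13%, 4.06 to 6.38). At a minimum of 1500 bp, replicate 1 gave 0.951% on 3R and 1.02% on the other large arms, so the direction was reversed. Along 3R, 21 of 28 bins of 1 Mb exceeded the 10.1% of the other large arms. Each of those arms had such bins too, and their number is not compared here. Examples are 40% on 2L (17 to 18 Mb), 22.5% on 2R and 19.1% on 3L (both 15 to 16 Mb), and 18.4% on X (4 to 5 Mb). Without the 2 bins of 3R with the highest shares, 23 to 25 Mb, the share on 3R was 12.4% (10.7 to 14.2). The intervals treat regions as independent, which clustered regions are not.

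**Figure D4:**
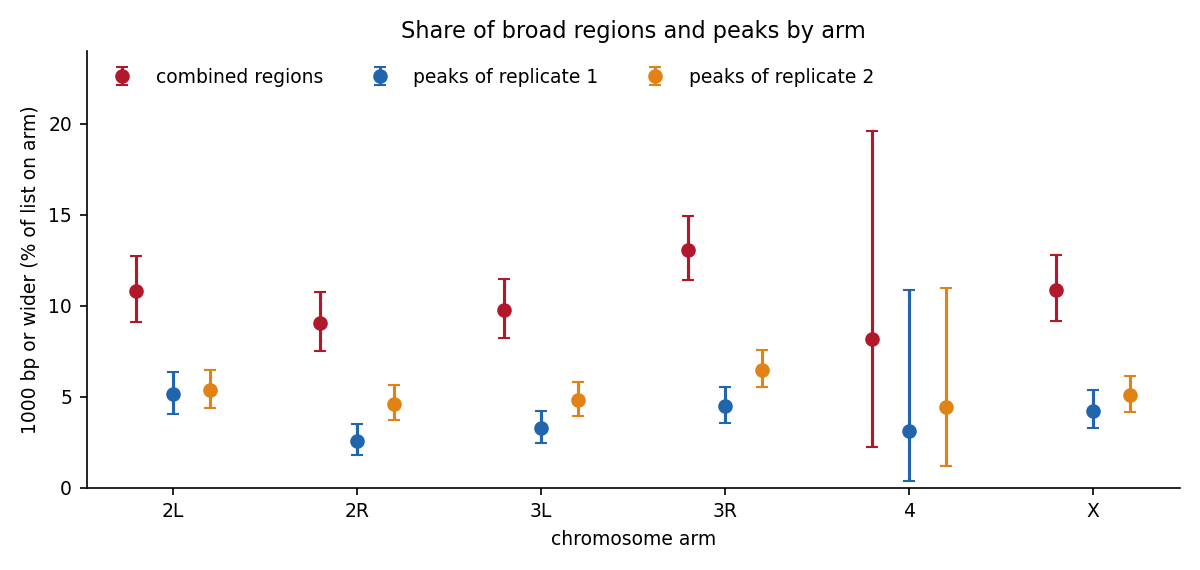
Percentage of combined regions (red), replicate 1 peaks (blue) and replicate 2 peaks (orange) that are 1000 bp or wider on each chromosome arm, with 95% exact binomial intervals. 3R is highest among combined regions (13.1%) and replicate 2 peaks (6.49%), whereas 2L is highest in replicate 1 (5.13%), and the intervals of chromosome 4 are wide.

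Close to the centromere the share of broad regions was high on 2L and 3L and not on the other large arms. In the proximal stretch of 3L (2 Mb counted from the last peak) 12 of 28 regions were broad (42.9%, 24.5 to 62.8), against 120 of 1325 farther out (9.06%, 7.57 to 10.7). On 2L the counts were 13 of 54 (24.1%, 13.5 to 37.6) and 117 of 1148 (10.2%, 8.50 to 12.1). X gave 7 of 54 (13.0%, 5.37 to 24.9) and 123 of 1141 (10.8%). The proximal shares were the lower ones on 2R (2 of 46, 4.35%, 0.531 to 14.8, against 9.21%) and on 3R (12 of 144, 8.33%, 4.38 to 14.1, against 13.6%). Over the 5 large arms the proximal stretches held 6.61% of broad regions (4.88 to 8.72) and 4.86% of narrower ones (4.32 to 5.45).

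Both libraries gave these directions on 2L and 3L, though each proximal share rested on only 4 to 11 broad peaks. In replicate 1, 4 of 53 proximal 3L peaks were broad (7.55%), against 3.14% farther out, and in replicate 2 it was 10 of 77 (13.0%), against 4.50%. On 2L the shares were 11.8% and 4.77% in replicate 1, and 11.5% and 5.02% in replicate 2. Most of the proximal broad regions lay between 1 and 2 Mb from the end of the last peak, where 11 of 25 regions were broad on 3L and 10 of 38 on 2L. Within 1 Mb of it few regions were called, and 1 of 3 was broad on 3L (33.3%, 0.840 to 90.6) and 3 of 16 on 2L (18.75%, 4.05 to 45.6). Between 2 and 3 Mb from it the counts were 1 of 34 on 3L and 3 of 51 on 2L. On 3L the stretch from 22709887 to 23143640, chosen after its values were seen, held 11 broad regions among 22.

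The proximal broad regions scored low. Those of the 5 large arms had median scores of 1.53 in replicate 1 and 2.03 in replicate 2 (46 regions), against 1.76 and 2.31 for the 650 other broad regions. Proximal narrower regions had 1.66 in replicate 1 and 2.33 in replicate 2, against 1.77 and 2.34 for the other narrower ones. When the lower-scoring regions of the combined list (below its median score) were left out, the order of the proximal shares was the opposite. The proximal stretches then held 3.40% of broad and 4.63% of narrower regions. No intervals were computed for these shares, and with all scores the intervals overlapped (4.88 to 8.72 and 4.32 to 5.45). Neither difference is thus settled, and whether low scores had a part in the proximal share was not tested.

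The edges of broad regions were nearer to a neighbour than those of all narrower ones together, whereas the median distance between midpoints was almost the same. The median distance from edge to edge was 1974 bp for broad regions (quartiles 492.75 and 5547.5) and 2536 bp for narrower ones (695 and 6556). A neighbour within 500 bp was present for 180 of 700 broad regions (25.7%, 22.5 to 29.1) and 1192 of 5803 narrower ones (20.5%, 19.5 to 21.6). Within 1 kb the shares were 36.9% (33.3 to 40.6) and 30.6% (29.5 to 31.8). By width class, regions on either side of the limit were alike between edges. The medians were 2095 bp from 750 up to 1000 bp and 2099 bp from 1000 up to 1500 bp. The largest was 3249.5 bp, under 250 bp. From 1500 up to 2000 bp it was 1433.5 bp, and 1491 bp at 2000 bp or more. From midpoint to midpoint the medians were 3027 bp for broad and 3045 bp for narrower regions. They were 2784 bp from 750 up to 1000 bp and 3071 bp from 1000 up to 1500 bp. For all broad and all narrower regions the quartiles differed. The lower quartile was 1531 bp for broad regions and 1260 bp for narrower ones, so broad regions were farther there. The upper quartiles were 6563.5 and 7030 bp and the 90th percentiles 12558 and 15304 bp, so above the median broad regions were nearer between midpoints as well.

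**Figure D5:**
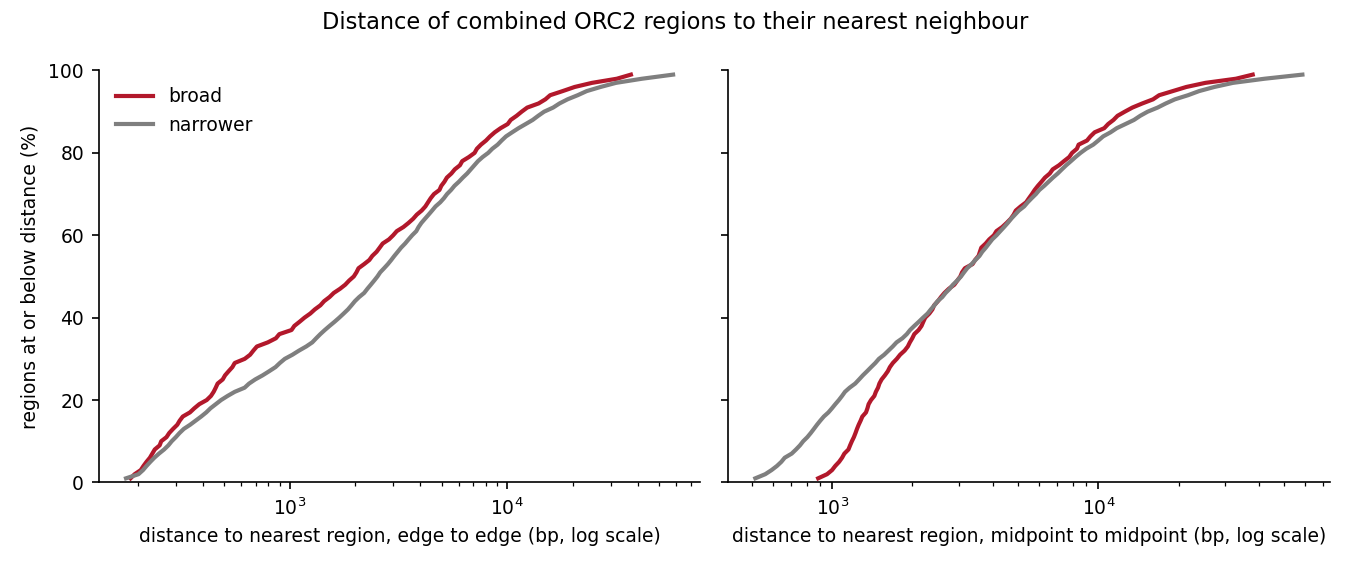
Cumulative percentage of broad (red) and narrower (grey) regions by distance to the nearest combined region, measured between edges (left) and between midpoints (right), on a log distance axis. Between edges the broad curve lies to the left (median 1974 against 2536 bp), and between midpoints the curves meet near the median, below it the broad curve lies to the right, and above it to the left.

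The surroundings of broad regions were slightly fuller than those of all narrower ones together, but not than those of narrower regions near the limit. Within 25 kb on either side a broad region had 4.98 other combined regions on average and a narrower one 4.58. By width class the mean was 4.15 under 250 bp, 5.08 from 750 up to 1000 bp and 4.88 from 1000 up to 1500 bp. It was 5.27 from 1500 up to 2000 bp and 5.23 at 2000 bp or more. The share of broad regions had overlapping intervals in windows of 100 kb with few and with many regions. It was 8.59% (6.50 to 11.1) in windows with 1 to 3 regions and between 10.03% and 11.8% in the fuller classes. Stretches of at least 100 kb without a combined region were bordered by 40 broad regions (5.71%, 4.11 to 7.70) and 393 narrower ones (6.77%, 6.14 to 7.45), so broad regions were not seen more often there. Peaks called in 1 library alone lay within 1 kb of 88 broad regions in replicate 1 (12.6%, 10.2 to 15.3) and of 457 narrower ones (7.88%, 7.19 to 8.60). In replicate 2 the numbers were 178 (25.4%, 22.2 to 28.8) and 1177 (20.3%, 19.3 to 21.3). These shares were not split by width class, so narrower regions near the limit are not set apart. These flanking calls were short beside both kinds of region. Their median widths were 60.5 bp near broad and 63 bp near narrower regions in replicate 1, and 64.5 and 76 bp in replicate 2.

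Broad regions followed each other a little more often than they followed narrower ones. The next region along the arm was broad after 99 of 699 broad regions (14.2%, 11.7 to 17.0) and after 601 of 5798 narrower ones (10.4%, 9.59 to 11.2). By arm the shares were 19.2% and 9.80% on 2L, 16.7% and 9.02% on 3L, 13.95% and 10.5% on X, and 10.8% and 8.86% on 2R. On 3R the order was the opposite, 11.4% and 13.3%. Narrower regions were not split by width class here. In the replicate lists the intervals overlapped, with 4.46% (2.46 to 7.37) and 3.91% (3.49 to 4.37) in replicate 1 and 7.02% (5.02 to 9.51) and 5.21% (4.77 to 5.67) in replicate 2. Of the 700 broad regions, 518 had no broad region directly before or after them. As 10.8% of all regions were broad, few neighbours of any region are broad, and nothing is read from this count.

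The longest uninterrupted row of broad regions was ORC981 to ORC985, 5 regions at 2L 17447725 to 17501777 with 12937 bp bound over 54053 bp. From first to last their widths were 3780, 3185, 2941, 1754 and 1277 bp, so they included 2 of the 10 widest. Their scores in replicate 1 were 1.58, 1.18, 1.24, 1.17 and 1.69, and in replicate 2 they were 2.82, 1.85, 1.62, 1.36 and 3.45. In replicate 1 the 3 in the middle scored below the 10th percentile of broad regions (1.40), and in replicate 2 those with 1.62 and 1.36 did (1.72). Directly beyond ORC985 no combined region followed for 461169 bp. Rows of 4, named after their values were seen, were found at 3L 9365341 to 9378035, 3L 22709887 to 22735587 and 3R 23070226 to 23099924, the second of them within the proximal stretch of 3L.

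The closest pairs of broad regions were separated by little more than the shortest gap within a replicate list. ORC6082 and ORC6083 on X (1119 and 1144 bp) were 207 bp apart, from 12647593 to 12650062. Their scores were close in replicate 1 (2.54 and 2.53) and differed in replicate 2 (3.53 and 4.39). ORC918 and ORC919 on 2L (1613 and 1352 bp) were 208 bp apart, and ORC6032 and ORC6033 on X (2277 and 1666 bp) were 213 bp apart. In all, 26 pairs of successive broad regions were under 1 kb apart.

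At a larger scale, distances and window counts depend on how many broad regions there are (700 of 6503), so they are given as a description. The median distance between successive broad regions was 84.7 kb (upper quartile 242776 bp). Of 1206 windows of 100 kb, 744 held no broad region, 307 held 1 and 57 held 3 or more. The highest number was 6, in 3 windows named after their counts were seen, which started at 2L 12000001, 2L 17400001 and 3R 4800001, of 17, 9 and 16 regions. The longest stretch without a broad region ran from 16158101 to 17556450 on 3L (1398350 bp) and still held 87 narrower regions. Of the 123 bins of 1 Mb, 4 held no broad region and the highest count was 13, on 3L from 15 to 16 Mb.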

How the data were processed

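Deposited peak lists of 2 ORC2 ChIP-seq libraries (8247 and 10621 peaks) and a combined list (6587 regions) were analysed. Peaks had been called with PeakSeq on FlyBase release 5.1, as the file headers and the lists themselves state. The sources used here do not give aligner, caller version, thresholds or control. Each deposited score is the authors' value per peak, with a scale that is not given. The lists hold no read counts, so depth is unknown and no correction for it was possible.

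Overlap meant at least 1 bp. Arm ends were taken as the last base of the last peak over the 3 lists, and centromere-proximal stretches as 2 Mb, taken at the high-coordinate end on 2L, 3L and X and from base 1 on 2R and 3R. Intervals (95%, exact binomial or exact Poisson, scipy 1.17.1) cover counting error only. No test between samples was made. Overlap and distance functions were tested on simulated lists. Python 3.11.15 and pandas 2.3.3 were used.

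Named regions were the 10 widest, the 10 highest-scoring, the 3 on each side of the limit, those with most peaks, the 3 closest pairs and the longest row. Members and comparisons were chosen with earlier results of these data known. Alternatives were other width minima, higher scores, all scaffolds, each library alone, midpoints, other overlaps and other proximal lengths. A genome sequence and annotation of release 5.1 were not used here, so genes and sequences are not given.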

Additional observations from a re-analysis of the deposited data

Results flagged for a closer look

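Broad regions were also called outside the main arms, in data that the comparisons do not use. On the heterochromatic scaffolds and U, which holds sequence placed on no arm, 27 of 84 combined regions were 1 kb or wider (32.1%, 95% exact binomial interval 22.4 to 43.2), against 10.8% on the main arms. In replicate 1, 24 of 230 peaks there were that wide (10.4%, 6.80 to 15.1), against 3.93% on the main arms. In replicate 2 it was 25 of 398 (6.28%, 4.11 to 9.13), against 5.30%, so the interval included the main-arm share. The 27 lay on U (8), 3LHet (6), 3RHet (6), 2RHet (4), 2LHet (2) and XHet (1), and the widest, on 3LHet, measured 4037 bp.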

How the results depend on the processing

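No test, paired or unpaired, was made, because 2 libraries of one group allow none between samples. The number of broad regions was 1200, 189 and 61 at minima of 800, 1500 and 2000 bp, with 40.6%, 10.7% and 4.59% of the bound length. It was 327 among higher-scoring regions (median score and above), and 207 stretches (12.6% of the bases in common) where only bases covered by both replicates counted. Single libraries gave 315 to 542 broad peaks with 16.1% to 20.9% of the bound length. Several peaks of one library lay in 32% of regions at 800 bp, 55.0% at 1500 bp and 63.9% at 2000 bp. The median distance of broad regions to the nearest neighbour was 1442 bp at 1500 bp, 1491 bp at 2000 bp, 4823 bp among higher scores, 773 to 899 bp in single libraries and 3027 bp between midpoints. Between edges, broad regions were nearer than narrower ones in all 8 settings compared. Between midpoints they were nearer at 800 bp (2921 against 3071 bp), at 1500 bp (2864 against 3046 bp) and among higher scores (6098 against 7213 bp). They were farther at a minimum of 2000 bp (3491.5 against 3043 bp) and in both single libraries (1755 against 1418 bp in replicate 2, 1943 against 1784 bp in replicate 1). The proximal share was 3.40% among higher scores, 1.58% for 1 Mb and 10.1% for 3 Mb. At a minimum of 1500 bp the median width in the other library was 1682 bp at peaks chosen in replicate 1 and 1231 bp at those chosen in replicate 2. Leaving out a library was not possible for this result or for peaks per region. A higher minimum lowers the number of broad regions and their share of the bound length by construction. A shorter proximal stretch likewise lowers the proximal share. For the other values that moved, the cause was not tested. Among these were the edge distances, the midpoint distances and the proximal share among higher scores. Without read counts, how depth limits width is unknown.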
